A study of Homo sapiens with 3 samples.

Results

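The genes described here encode the protein subunits of the mitochondrial ribosome. They were taken by symbol: every gene whose symbol is MRPL or MRPS followed by a number, read on probe sets that name no other gene, and represented by the probe set with the highest mean. This gave 71 genes of the 22399 with a value, 46 with an MRPL and 25 with an MRPS symbol. All 71 had a mean level over the 3 arrays at or above the median of all gene means (1.21 on the log2 scale), and 45 were at or above the 75th percentile (2.87). A further 6 genes, MRPL12, MRPL30, MRPL53, MRPS6, MRPS24 and MRPS28, appear here only on probe sets that also name another gene, and their values were not used.

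RNA came from proliferating HEK293T cells, a long-used human cell line derived from embryonic kidney, in DMEM with serum. All lines had been made with pCDF1 lentivirus and selected with puromycin. They carried TRAF7 G536S, wild-type TRAF7 or the empty vector, with 1 Affymetrix array each. TRAF7 is a RING-type E3 ubiquitin ligase, and G536S is a change in its WD40 part. The cells keep their own TRAF7 gene, and the labels do not say whether a line is a pool or a clone. With 1 array per group there is no p-value and no error: each difference is 1 array minus another and also holds the differences between cultures, extractions and arrays. In a whole culture, fewer cells with an RNA and less of it per cell cannot be told apart.

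TRAF7 itself read 7.35 (G536S), 8.11 (wild type) and 5.66 (empty vector) in log2 intensity. Of 8 genes listed as marks of this cell line 5 passed the level filter, CDH2, INA, NEFL, PAX2 and KRT18, while KRT8, EPCAM and NEFM did not. The filter is the median of all gene means, so 50% of all genes pass it, and 5 of 8 is near that share. KRT18 passed narrowly, with a mean of 1.214 against 1.213. Of 7 measured marks of leukocytes, fibroblasts, endothelium and hepatocytes 1 passed, COL1A1, and the other 6 read at most 1.04 on any array. The summed log2 values of the cell line's marks were 22.4 (G536S), 22.1 (wild type) and 22.9 (empty vector), and those of the other cell types 7.63, 8.08 and 7.96 in that order of arrays.

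The mitochondrial ribosome translates the few proteins encoded by mitochondrial DNA, which are core subunits of the respiratory chain and ATP synthase. Its RNA is mitochondrial, while its proteins are encoded in the nucleus, made in the cytosol and imported. Many subunits have a counterpart in the bacterial ribosome, and others occur only in mitochondria. The symbols do not fully follow the particle: MRPS18A and MRPS30 sit in the large subunit, so 48 of the genes encode large and 23 small subunit proteins.

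The promoters were searched for sequence that these genes share. RefSeq's GRCh38.p14 annotation gave a window of 250 bases before to 50 after the start for 64 of the 71 genes, on 20 chromosomes, and where a gene has several starts the first listed was used. MRPL2, MRPL10, MRPL13, MRPL15, MRPL21, MRPL23 and MRPL35 had no entry. The letters CCGGAAG, the core bound by ETS factors such as GABPA, were found on either strand in 27 of 64 windows (42.2%), against 10.7% of 27305 promoters of all genes and 14.2% of 15843 of protein-coding genes. The letters AAGATGG, part of the YY1 motif, were in 22 (34.4%), against 6.06% and 6.40%. In 15 of these 22 the match reached past the start. The promoter sets were not limited by level, while all 71 members lie at or above the median level. Promoters of other genes at such levels were not searched as a set.

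Other motifs were nearer to the share of all promoters. The NRF1 core CGCATGCG was in 3 windows (4.69%, against 2.19% of all and 2.88% of protein-coding promoters), the E-box CACGTG in 6 (9.38% against 7.43% and 8.88%) and the GC box GGGCGG in 39 (60.9% against 44.6% and 58.5%). No match overlapped one of another motif. A match is a string of letters and not a measured binding site.

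Stretches from 100 bases before to 20 bases after the start are shown for 6 genes on which the results below turn, with matches to these motifs in capitals. MRPS12, MRPS11 and MRPL46 are shown as genes higher with G536S than with wild type, and MRPL39, MRPL40 and MRPL45 as genes with both TRAF7 arrays above the empty vector. The ETS letters stand in MRPS12 (chr19:38930844-38930963, plus strand) and MRPL40 (chr22:19432445-19432564, plus strand). The YY1 letters stand in MRPL46 (chr15:88467369-88467488, minus strand) and MRPL45 (chr17:38297068-38297187, plus strand), and the GC box in MRPL39 (chr21:25607462-25607581, minus strand). MRPS11 (chr15:88467608-88467727, plus strand) holds none of the letters in this stretch.
MRPS12: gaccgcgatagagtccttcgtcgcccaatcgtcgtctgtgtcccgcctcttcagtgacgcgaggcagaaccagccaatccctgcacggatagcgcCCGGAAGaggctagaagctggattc
MRPS11: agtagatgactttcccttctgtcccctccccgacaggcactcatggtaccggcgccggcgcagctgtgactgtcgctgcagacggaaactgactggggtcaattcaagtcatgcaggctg
MRPL46: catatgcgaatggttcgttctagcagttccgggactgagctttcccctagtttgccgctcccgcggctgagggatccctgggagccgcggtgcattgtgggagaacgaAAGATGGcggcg
MRPL39: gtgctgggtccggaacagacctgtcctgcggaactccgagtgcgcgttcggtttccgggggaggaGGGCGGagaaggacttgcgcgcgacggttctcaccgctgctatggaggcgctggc
MRPL40: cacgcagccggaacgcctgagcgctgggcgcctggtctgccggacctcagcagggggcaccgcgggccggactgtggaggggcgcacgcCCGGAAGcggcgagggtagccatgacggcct
MRPL45: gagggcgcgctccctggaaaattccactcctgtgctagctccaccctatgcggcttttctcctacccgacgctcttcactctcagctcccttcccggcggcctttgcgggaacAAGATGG

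The first comparison sets G536S against wild-type TRAF7. TRAF7 itself read 0.76 lower in the G536S array (-0.76), so the substitution and the level of the construct cannot be told apart. The G536S array read higher for more mitochondrial ribosomal genes than for genes at large. Of the 71 genes, 18 were higher by 1.2-fold or more, where 14.2% of the 11200 genes at or above the median level were. Lower by as much were 3, where 12.4% of those genes were. The median difference was 0.09 on the log2 scale against 0.01 for those genes, and 47 of 71 (66.2%) lay above 0, against 51.4%. At 1.5-fold, 2 genes were higher and 0 lower, against 2.17% and 1.81% of all, so the shift is made of small differences.

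Quantile normalization, median centring and cyclic loess left the members' median between 0.07 and 0.08, while that of all genes lay between -0.02 and -0.01. After each of them 15 members were higher by 1.2-fold or more, against 12.4%, 12.4% and 13.2% of all genes, and 3 lower, against 13.5%, 14.5% and 13.7%.

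MRPS12, the counterpart of the bacterial S12 protein of the decoding centre, had the greatest difference. It read 3.08 (G536S), 2.14 (wild type) and 2.99 (empty vector), so G536S was 0.95 above wild type (1.93-fold). The wild-type array is the one apart: it was 0.86 below the empty vector (-0.86). MRPS11, a protein of the small subunit platform, followed with 3.90 (G536S), 3.29 (wild type) and 3.71 (empty vector), a difference of 0.61 between the constructs (1.53-fold). MRPL34, a short large-subunit protein with a bacterial counterpart, read 5.56 (G536S), 4.98 (wild type) and 5.61 (empty vector). Its difference of 0.58 lies just under the 1.5-fold mark. In MRPS12, MRPS11 and MRPL34 wild type was the lowest array by more than the other arrays differed from each other.

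MRPL58, a peptidyl-tRNA hydrolase that became a ribosomal subunit, read 6.07 (G536S), 5.66 (wild type) and 6.06 (empty vector), again with wild type alone at the low end. MRPL55, the counterpart of bacterial L31 in the central protuberance, had another order. It read 2.15 (G536S), 1.80 (wild type) and 2.59 (empty vector), so that both TRAF7 arrays were below the empty vector array.

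In a second set of these genes the G536S array was the one apart. MRPL14, at the face where the subunits join, read 3.74 (G536S), 3.21 (wild type) and 3.24 (empty vector). MRPL28 read 2.12 (G536S), 1.60 (wild type) and 1.57 (empty vector). MRPL46, a protein of the central protuberance, read 4.92 (G536S), 4.47 (wild type) and 4.39 (empty vector). In each of these the wild-type and empty vector arrays lay within 0.08 of each other as deposited. After rescaling the sign of this gap changed for MRPL28 and MRPL46, and for MRPL14 it widened to between -0.19 and -0.12. MRPL57, one of the mitochondria-specific proteins, read 4.17 (G536S), 3.76 (wild type) and 3.70 (empty vector), with G536S again the highest and a gap between the other arrays that changes sign with the scaling.

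In MRPS21 and MRPL37, the members with the highest levels, the size of the differences depended on the scaling, while no MRPS21 difference changed sign. MRPS21 read 9.34 (G536S), 9.06 (wild type) and 9.09 (empty vector), and after rescaling G536S was 0.12 to 0.13 above and wild type 0.09 to 0.12 below the empty vector, with 0.21 to 0.25 between the constructs. MRPL37 read 8.35 (G536S), 8.07 (wild type) and 8.13 (empty vector). Its difference of G536S minus empty vector was 0.23 as deposited and -0.0045 to 0.11 after rescaling. Between the constructs it was 0.19 to 0.26 after rescaling.

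In another set the empty vector lay between the constructs. The mitochondria-specific MRPS33 read 1.94 (G536S), 1.37 (wild type) and 1.56 (empty vector). MRPL41 read 2.14 (G536S), 1.65 (wild type) and 1.77 (empty vector). MRPS34 read 7.54 (G536S), 7.15 (wild type) and 7.28 (empty vector). MRPL38 of the central protuberance had the same order, with 0.36 between the constructs.

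**Figure D1:**
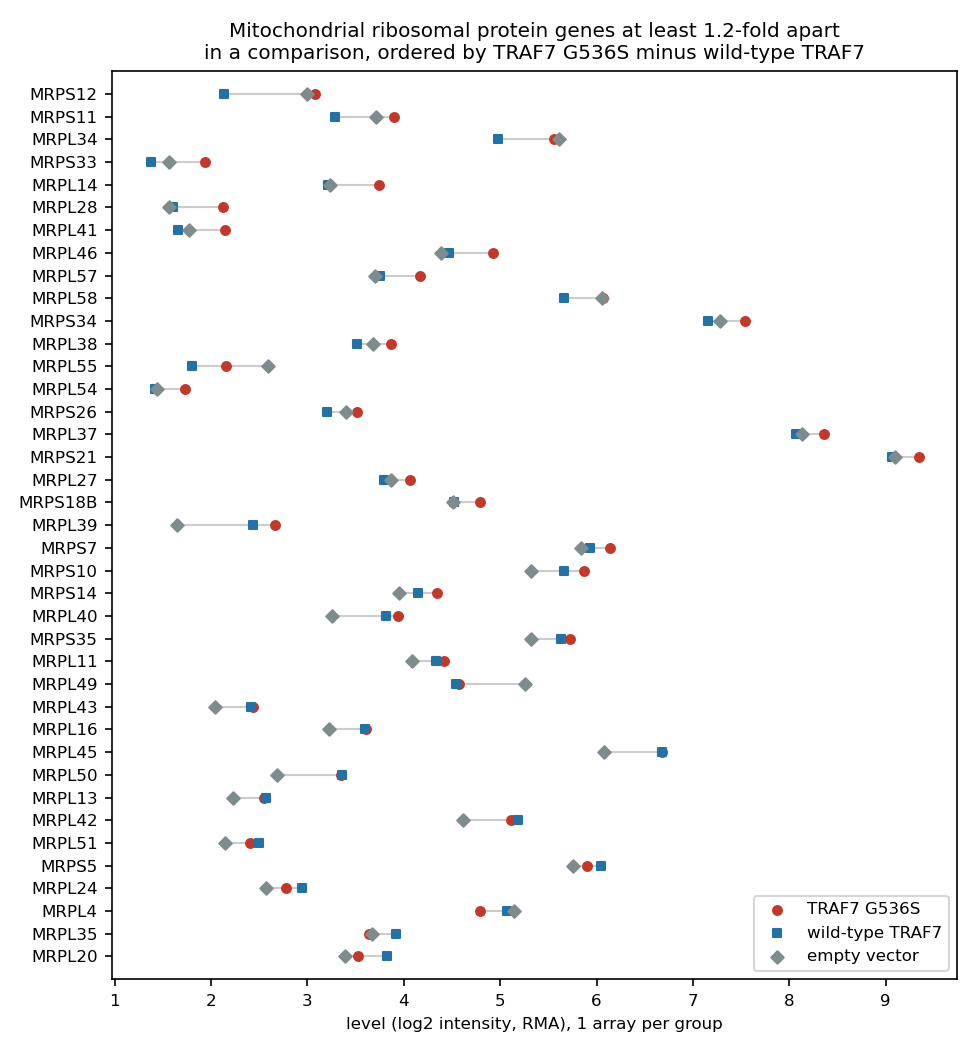
Level on the log2 intensity scale (x axis) of the 39 mitochondrial ribosomal genes at least 1.2-fold apart in any of the 3 comparisons, 1 point per array, running down the page by G536S minus wild type with MRPS12 (0.95) at the top and MRPL20 (-0.30) at the bottom. In the top 18 genes, as deposited, the G536S point lies at least 1.2-fold right of the wild-type point, and in MRPL39, MRPL40, MRPL45 and MRPL50 both TRAF7 points lie right of the empty vector point.

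The 3 genes lower with G536S than with wild type by 1.2-fold or more were all large subunit proteins with bacterial counterparts. MRPL20 read 3.52 (G536S), 3.82 (wild type) and 3.39 (empty vector), a difference of -0.30. MRPL35 read 3.64 (G536S), 3.92 (wild type) and 3.67 (empty vector), or -0.29. In MRPL20 and MRPL35 wild type was the highest array. MRPL4, which lines the tunnel of the growing chain, read 4.79 (G536S), 5.07 (wild type) and 5.15 (empty vector), or -0.28, with G536S the lowest array. MRPL47, MRPL24, MRPS16, MRPS25 and MRPS9 followed between -0.19 and -0.16.

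**Figure D2:**
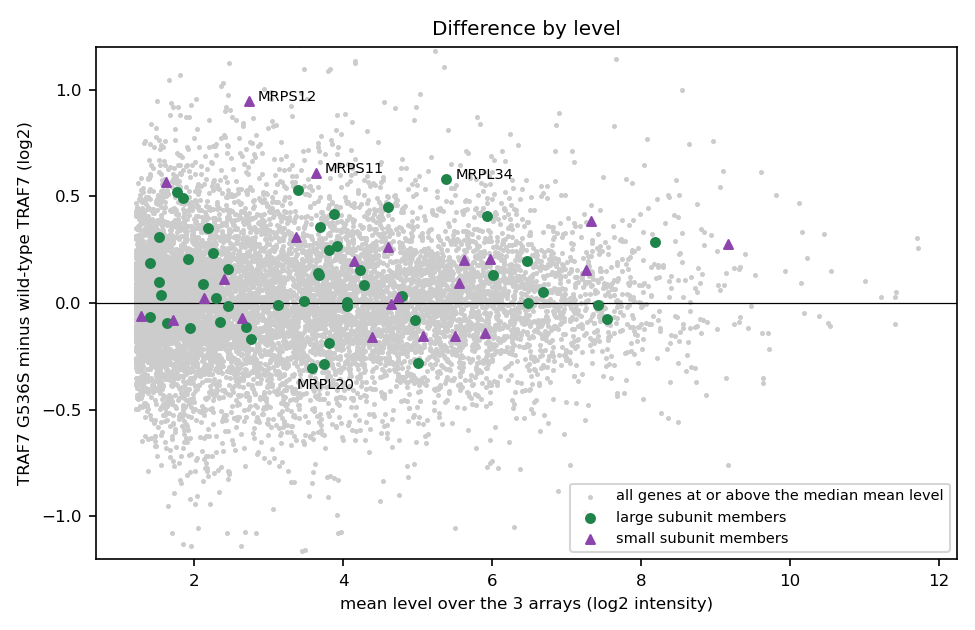
Difference of TRAF7 G536S minus wild-type TRAF7 (y axis, log2) against the mean level over the 3 arrays (x axis, log2 intensity), with 1 point per gene and 32 genes outside the axis limits of 1.2. Members lie at all levels from near the filter at 1.21 to MRPS21 at 9.17, and none lies below -0.30.

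The shift was seen at higher and at lower levels. Of the 45 genes at or above the 75th percentile, 31 lay above 0 with a median of 0.13. The 5600 genes of that level had a median of 0.01, with 2929 above 0. Of the 26 lower genes, 16 lay above 0 with a median of 0.06. The 5600 genes from the median to the 75th percentile had a median of 0.0024, with 2825 above 0. After rescaling the median of the 45 was 0.08 to 0.10 and that of the 26 was 0.04 to 0.05. Near the background an intensity understates a change in RNA, which touches MRPS33 (mean 1.63), MRPL28 (1.77) and MRPL41 (1.86). The empty vector value of MRPL39 (1.65) and the wild-type value of MRPL55 (1.80) are also low. With 1 array per group the noise at such levels is not known.

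The second comparison sets wild-type TRAF7 against the empty vector. As deposited, the mitochondrial ribosomal genes did not stand off as a group from genes at large. Their median was 0.08, and that of all genes at or above the median level was also 0.08. Above 0 lay 62.0% of members and 62.6% of all genes. After quantile normalization, centring and cyclic loess the members' median was -0.04, -0.02 and -0.03, so its direction depends on the scaling. The rescalings moved the median of all genes by -0.10 to -0.09. In the same order 38.0%, 40.8% and 39.4% of members lay above 0, against 46.7%, 47.8% and 49.0% of all genes. Higher by 1.5-fold or more were 3 members, against 5.42% of all genes, and lower 4, against 1.79%. At 1.2-fold, 14 were higher and 6 lower, against 25.4% and 10.4%.

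The 3 genes higher by 1.5-fold all encode large subunit proteins found only in mitochondria. MRPL39, near the exit of the tunnel, read 2.43 with wild type against 1.65 in the empty vector array (0.78, 1.72-fold). MRPL50 read 3.35 with wild type against 2.69 (0.67). MRPL45, which lies beside the inner membrane, read 6.68 with wild type against 6.08 (0.59). MRPL42 and MRPL40 came next at 0.57 and 0.56. Of all 71, MRPL39 alone stayed 1.5-fold higher after quantile normalization, centring or cyclic loess.

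The 4 genes lower by 1.5-fold were MRPS12 (-0.86), MRPL55 (-0.79), MRPL49 (-0.71) and MRPL34 (-0.63). MRPL49, a mitochondria-specific large subunit protein, read 4.54 with wild type against 5.25 in the empty vector array. MRPS11 and MRPL58 were lower by smaller amounts, at -0.42 and -0.40. These 6 are the members lower by 1.2-fold or more, and of them MRPL49 and MRPL55 were also lower by as much with G536S.

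The last comparison sets G536S against the same empty vector array, so the comparisons share it and are not independent. The members' median was 0.19 against 0.10 for all genes at or above the median level, and 57 of 71 (80.3%) were above 0, against 63.9%. After quantile normalization, centring and cyclic loess the members' median was 0.04, 0.07 and 0.06, and that of all genes -0.03, -0.02 and -0.01. Higher by 1.5-fold or more were 4 members and lower 1, against 6.07% and 2.08% of all genes. At 1.2-fold, 21 were higher and 3 lower, against 27.5% and 10.7%. After the 3 rescalings, in the same order, 1 member was 1.5-fold higher each time, against 3.15%, 3.41% and 3.47% of all genes. At 1.2-fold, 11, 13 and 14 were higher, against 15.3%, 15.99% and 16.7%, and 7, 5 and 5 lower, against 20.2%, 19.5% and 18.1%.

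MRPL39 had the greatest difference, with 2.67 with G536S against 1.65 in the empty vector array (1.02, 2.03-fold). MRPL40, a central protuberance protein, read 3.94 (G536S), 3.81 (wild type) and 3.25 (empty vector), a difference of 0.69 for G536S. In this comparison too MRPL39 alone stayed 1.5-fold higher after each rescaling. MRPL50 read 3.35 with either construct and was 0.66 above the empty vector with G536S. MRPL45 read 6.68 with either construct and was 0.60 above. In MRPL39, MRPL40, MRPL45 and MRPL50 both TRAF7 arrays were thus above the empty vector array by more than they differed from each other.

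Smaller differences of this kind were seen in other genes. MRPS10, of the small subunit head, read 5.87 (G536S), 5.66 (wild type) and 5.32 (empty vector). MRPL42 read 5.11 (G536S), 5.19 (wild type) and 4.61 (empty vector). MRPS35, a mitochondria-specific small subunit protein, read 5.72 (G536S), 5.63 (wild type) and 5.32 (empty vector). MRPL11, MRPL13, MRPL16 and MRPL43 lay 0.33, 0.33, 0.38 and 0.39 above the empty vector with G536S and 0.25, 0.34, 0.37 and 0.37 with wild type. After rescaling, MRPL11, MRPL13, MRPL16 and MRPL43 lay 0.16 to 0.28 above it with G536S and 0.11 to 0.28 with wild type.

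The member lower by 1.5-fold with G536S was MRPL49, at 4.57 against 5.25 in the empty vector array (-0.68). MRPL55 and MRPL4 followed at -0.44 and -0.36. MRPS17 (-0.24) and MRPS2 (-0.22), which have bacterial counterparts in the small subunit, were next. MRPL44 at -0.12 and MRPS23 at -0.10 were also among the lowest.

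**Figure D3:**
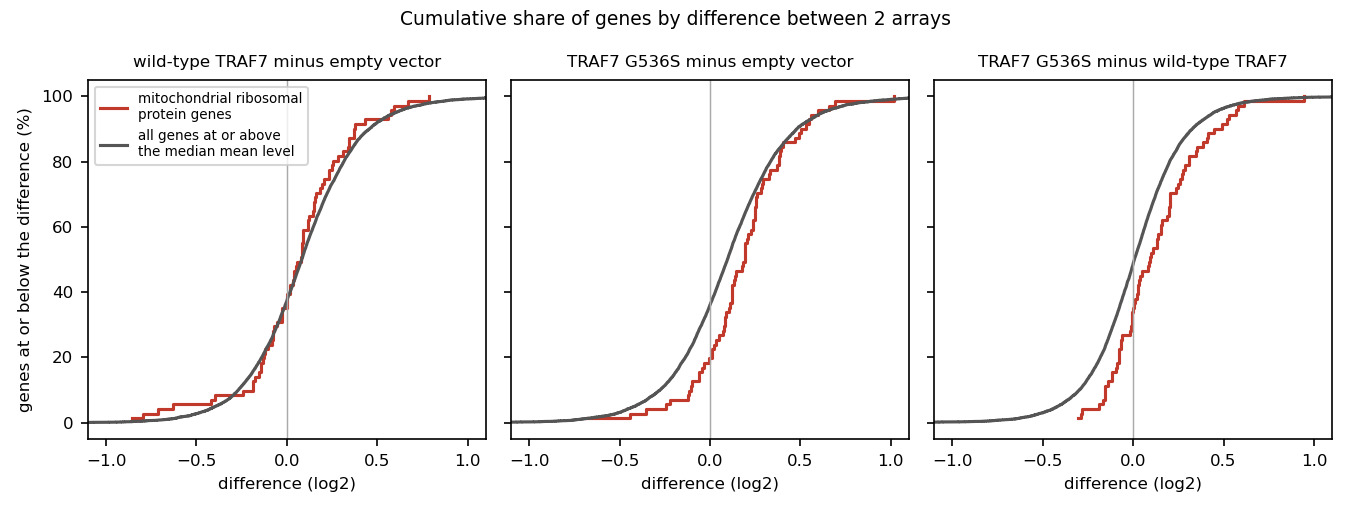
Share of genes (y axis, percent) at or below each log2 difference (x axis) for the 71 mitochondrial ribosomal genes and for the 11200 genes at or above the median level, in the 3 comparisons as deposited. The lines run together for wild type minus empty vector (medians 0.08 and 0.08, where the members' median is -0.04 to -0.02 after rescaling), and the members' median lies to the right in both comparisons with G536S on top (0.19 against 0.10, and 0.09 against 0.01).

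Read across the 3 arrays, G536S gave the highest value for 42 of the 71 genes (59.2%, against 40.0% of all genes at or above the median level) and the lowest for 9 (12.7% against 24.7%). Wild type was lowest for 22 genes (31.0% against 24.9%), and the empty vector for 40 (56.3% against 50.4%). The order of the arrays shifted with the scaling. After cyclic loess G536S was highest for 33 members (46.5% against 31.3%), wild type was lowest for 34 (47.9% against 31.2%) and the empty vector was lowest for 20 (28.2% against 35.6%).

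Within 1.2-fold in all 3 comparisons stayed 32 of the 71 genes (45.1%) as deposited, near the 42.5% of all genes at or above the median level. After quantile normalization, centring and cyclic loess the share was 56.3%, 54.9% and 59.2% of members, against 45.4%, 45.0% and 45.9% of all genes. Among the 32, MRPL9 read 7.43 (G536S), 7.44 (wild type) and 7.40 (empty vector). MRPL2, at the peptidyl transferase centre, read 7.54 (G536S), 7.62 (wild type) and 7.46 (empty vector). MRPL48 and MRPL52 of the central protuberance read 2.62 and 1.36 with G536S, 2.74 and 1.43 with wild type, and 2.74 and 1.43 in the empty vector array. MRPL1, among the members with the lowest levels, read 1.64 (G536S), 1.54 (wild type) and 1.39 (empty vector).

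MRPS18A, MRPS18B and MRPS18C are relatives of bacterial S18, of which MRPS18A sits in the large and the others in the small subunit. MRPS18A read 6.57 (G536S), 6.37 (wild type) and 6.45 (empty vector). MRPS18B read 4.79 (G536S), 4.52 (wild type) and 4.51 (empty vector), and its 7 probe sets held the same values, so they are 1 measurement. MRPS18C lay near the filter level at 1.31 (G536S), 1.37 (wild type) and 1.18 (empty vector), with G536S below wild type. MRPL33 was the only other member with a second probe set: G536S minus wild type was 0.04 on the first and 0.22 on the second.

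By subunit, the medians were close. For G536S minus wild type the large subunit had a median of 0.09 with 32 of 48 above 0, and the small subunit 0.11 with 15 of 23. For G536S minus empty vector they were 0.19 with 38 of 48 and 0.14 with 19 of 23. Of all genes at or above the median level 51.4% and 63.9% lay above 0 in these comparisons. For wild type minus empty vector the large and small subunit medians were 0.05 and 0.09, both below 0 after each rescaling. Of the 14 genes higher with wild type by 1.2-fold or more, 7 were among the 19 large subunit genes found only in mitochondria. Of all genes at or above the median level 25.4% were higher by as much. The 19 as a whole were not raised in that comparison: their median was 0.0017, against 0.08 for all genes, and -0.09 to -0.07 after rescaling. Above 0 were 10 of them, and 2 were lower by 1.2-fold or more, against 62.6% and 10.4% of all genes. The same 19 genes held all 4 members 1.5-fold higher with G536S than with the empty vector, of which only MRPL39 stayed so after each rescaling.

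Position within the particle gave uneven groups. The 9 central protuberance genes, whose proteins bridge to the small subunit, had a median of 0.27 for G536S minus wild type, with 7 above 0 and 5 higher by 1.2-fold or more (MRPL46, MRPL58, MRPL38, MRPL55 and MRPL27). MRPL27, at 0.27 as deposited, fell below that mark after each rescaling, at 0.24 to 0.26. The 8 tunnel exit genes had a median of -0.0073, with 4 above 0 and 0 apart by 1.2-fold. In that comparison 51.4% of all genes at or above the median level lay above 0, 14.2% were 1.2-fold higher and 12.4% lower. For G536S minus empty vector the tunnel exit median was 0.21, and the central protuberance median was 0.09 as deposited but -0.05 to -0.03 after rescaling. Of the factor-binding stalk MRPL10, MRPL11 and MRPL54 were measured, at 0.09, 0.08 and 0.31 for G536S minus wild type. These groups are small and were not tested.

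**Figure D4:**
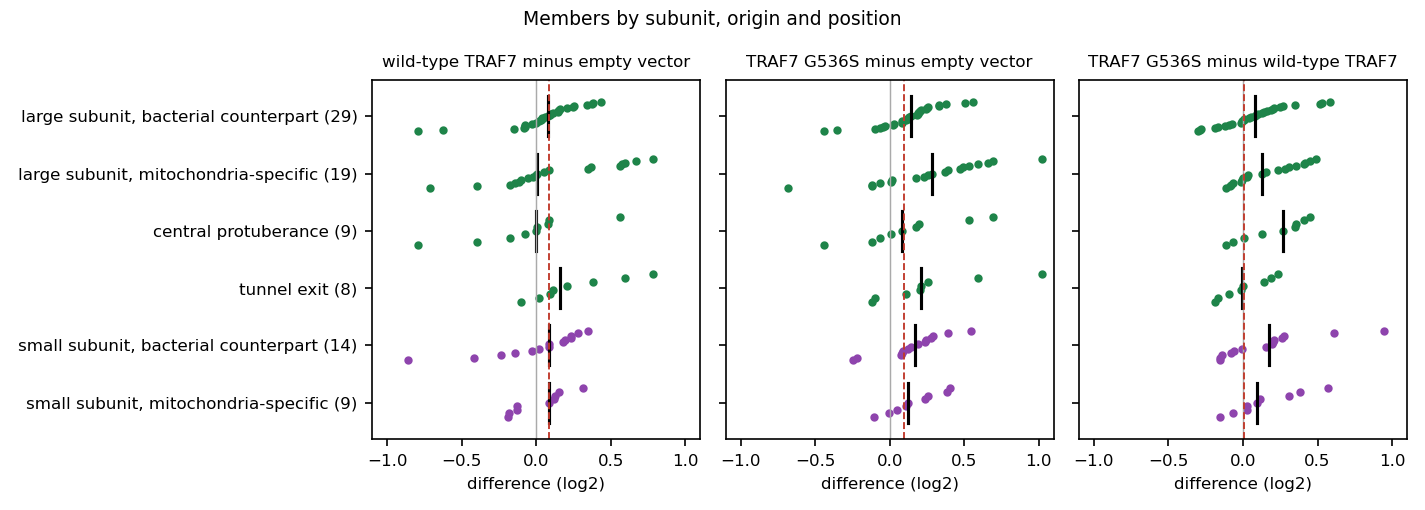
Log2 difference (x axis) of each member in the 3 comparisons, by subunit, origin and position, with the number of genes in brackets, a black bar at each group's median and a dashed line at the median of all genes at or above the median level. For G536S minus wild type the central protuberance median is 0.27 and the tunnel exit median -0.0073, and these genes also appear in the large subunit groups; for wild type minus empty vector the tunnel exit median (0.16) stays above 0 after rescaling, while those of the large and small subunit as wholes do not.

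Other genes of the particle have symbols outside the naming rule. DAP3 (small subunit), PTCD3 and CHCHD1 differed by 0.04, 0.21 and 0.31 for G536S minus wild type. The insertase OXA1L, which receives the nascent chains in the inner membrane, differed by 0.10. GADD45GIP1, a large subunit protein, read 4.50 (G536S), 4.67 (wild type) and 4.92 (empty vector), a difference of -0.17 between the constructs. None of these 5 was 1.5-fold apart in a comparison.

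Genes that build and serve the mitochondrial ribosome did not all run with its proteins. The 27 measured assembly factors had a median of 0.13 for G536S minus wild type. Of them 21 lay above 0, against 51.4% of all genes at or above the median level. For wild type minus empty vector their median was -0.11, with 10 above 0, against 62.6%. Among them MRM2, a methyltransferase of the large ribosomal RNA, read 4.38 (G536S), 3.75 (wild type) and 4.23 (empty vector), with wild type lowest. TFB1M, which methylates the small ribosomal RNA, read 2.97 (G536S), 3.59 (wild type) and 2.42 (empty vector), with wild type highest. The 13 measured translation factors had medians of 0.28 for G536S and 0.24 for wild type over the empty vector, and 0.04 between the constructs. Above the empty vector were 12 of them with G536S and 13 with wild type, where 63.9% and 62.6% of all genes at or above the median level were. After rescaling the medians of the translation factors over the empty vector were 0.13 to 0.16 for G536S and 0.13 to 0.15 for wild type. The initiation factors MTIF2 and MTIF3 were higher with G536S than in the empty vector array by 0.59 and 0.62.

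The 18 mitochondrial tRNA synthetases and amidotransferase subunits ran the other way between the constructs, with a median of -0.08 for G536S minus wild type. Above 0 were 6 of the 18, against 51.4% of all genes at or above the median level. PARS2 and LARS2, for proline and leucine, were at -0.59 and -0.42. The 17 genes of mitochondrial transcription and RNA processing had a median of 0.10, and the 23 of protein import 0.06. Of 9 regulators of mitochondrial biogenesis 2 were above 0 between the constructs, against the same 51.4%. NRF1 and GABPA, factors known to act on nuclear genes for mitochondrial proteins, differed by -0.16 and 0.06. MYC read 5.58 (G536S), 6.16 (wild type) and 6.37 (empty vector), and the coactivator PPARGC1B 2.09 (G536S), 2.28 (wild type) and 2.93 (empty vector). For both genes the empty vector array was the highest and G536S the lowest.

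Cytosolic ribosomal proteins and nuclear-encoded respiratory chain subunits, the gene sets most alike in function, had larger medians of the same sign for G536S minus wild type. Only genes with a probe set naming no other gene were used, and 45 of the 46 cytosolic and 61 of the 64 respiratory chain genes passed the level filter. The 46 cytosolic genes had a median of 0.16 with 39 above 0, and the 64 respiratory chain genes 0.14 with 47 above 0. Of all genes at or above the median level 51.4% lay above 0, with a median of 0.01. For G536S minus empty vector the cytosolic and respiratory chain medians were 0.25 and 0.18. That of the mitochondrial ribosomal genes was 0.19 and that of all genes at or above the median level 0.10. The difference between these sets was not tested.

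**Figure D5:**
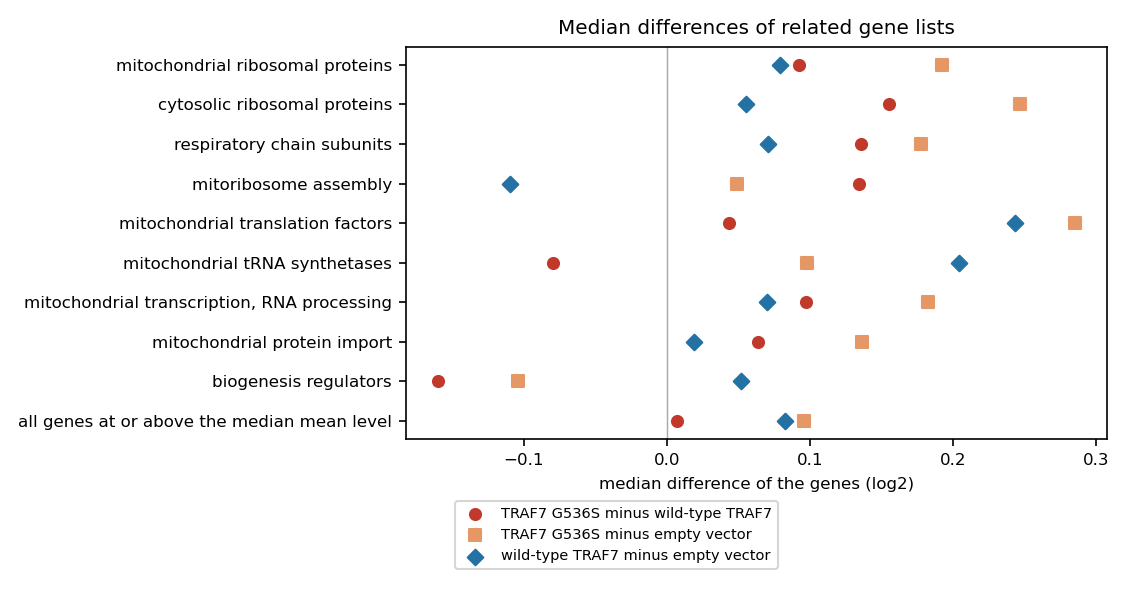
Median log2 difference (x axis) of 9 gene sets and of all genes at or above the median level in the 3 comparisons. For G536S minus wild type the medians of mitochondrial ribosomal (0.09), respiratory chain (0.14) and cytosolic ribosomal genes (0.16) lie above that of all genes (0.01) and the tRNA synthetases (-0.08) below; after rescaling, wild type minus empty vector medians stay above 0 only for translation factors and tRNA synthetases, and G536S minus empty vector medians of assembly factors, tRNA synthetases and (after quantile normalization) import genes turn below 0.

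The promoter letters shown earlier were set beside the differences. Of the 18 genes higher with G536S than with wild type by 1.2-fold or more, 10 held the ETS letters, against 17 of the other 46 with a promoter entry. The YY1 letters were in 3 of the 18 and 19 of the 46, and the GC box in 11 and 28. These counts are a description of few genes and were not tested.

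MRPL46 and MRPS11, both shown above, face each other: their starts lie 320 bases apart on opposite strands. MRPL46 was 0.45 and MRPS11 0.61 higher with G536S than with wild type. Of the 64 members with a promoter entry, 12 have a protein-coding gene starting within 500 bases on the opposite strand. Only the first listed start of each gene was used. These form 11 pairs, of which 9 have a value for both genes. The share of all genes with such a neighbour was not counted.

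Some of these pairs differed alike and others did not. MRPL50 and its neighbour ZNF189 were both above the empty vector, by 0.66 and 0.55 with G536S and by 0.67 and 0.81 with wild type. MRPL57 and SKA3, a kinetochore gene, were 0.42 and 0.25 higher with G536S than with wild type. MRPL49 starts 49 bases from FAU, which encodes a cytosolic ribosomal protein: MRPL49 differed from the empty vector by -0.68 with G536S and -0.71 with wild type, and FAU by 0.26 and -0.20. For G536S minus wild type MRPL27 differed by 0.27 and its neighbour EME1, a DNA repair nuclease subunit, by -0.53. MRPL32 differed by -0.12 and the proteasome gene PSMA2 beside it by 0.54.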

How the data were processed

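The table as deposited holds log2 intensities of probe sets from 3 arrays, which the authors summarised by RMA (background correction, normalization between arrays, probe summary), per the submitters' processing notes. The log base was inferred from the values; the software version is not given in the sources used here. Of 53617 probe sets, 23871 name 1 gene in the platform annotation, 1842 name several and 27904 are unnamed here. Array medians were 1.01 (G536S), 1.02 (wild type) and 1.04 (empty vector), and 75th percentiles 1.86, 1.85 and 1.73 in that order. The number of arrays limits the precision.

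Updating symbols through the Entrez ID gave the same 71 members. Differences are 1 array minus another; members past 1.5-fold or 1.2-fold were counted beside the share of the 11200 genes at or above the median mean level. No test was possible. The members and lists were chosen with earlier results of these data known; the cytosolic and respiratory chain sets, the motifs, the head-to-head pairs and the 1.2-fold counts were added later. Named members are those 1.5-fold apart, the 8 highest and 8 lowest of each comparison, the 5 highest and 5 lowest in level, those with several probe sets and the MRPS18 genes; other members, and the few genes named from each related list, were picked after their values were seen. Alternatives were the mean of probe sets, quantile normalization, median centring, cyclic loess, filters at the 75th percentile and at the median, 5 added genes and updated symbols. limma 3.58.1 in R 4.3.3, Python 3.11.15, numpy 2.4.6, pandas 2.3.3 and matplotlib 3.10.9 were used, and the counting was tested on simulated data.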

Additional observations from a re-analysis of the deposited data

Results flagged for a closer look

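In 21 of the 71 genes (29.6%, against 25.6% of all genes at or above the median level) the G536S and wild-type arrays lay on opposite sides of the empty vector array, and in 6 (8.45% against 7%) by at least 0.1 on the log2 scale on both sides, each with G536S above and wild type below. The differences of G536S minus wild type were 0.61 for MRPS11, 0.57 for MRPS33, 0.49 for MRPL41, 0.39 for MRPS34, 0.36 for MRPL38 and 0.31 for MRPS26. After quantile normalization, centring and cyclic loess 29, 31 and 31 members lay on opposite sides (40.85%, 43.66% and 43.66%, against 25.81%, 27.3% and 26.97% of all genes). Which genes met the mark of 0.1 on both sides depends on the scaling. In the same order 4, 8 and 7 members met this mark (5.63%, 11.3% and 9.86%, against 6.83%, 7.63% and 7.31% of all genes). Of the 6, MRPS33 and MRPL41 met it after all 3, and MRPS34 after centring and cyclic loess, while MRPS11, MRPL38 and MRPS26 met it after none; for MRPS26 the difference of G536S minus empty vector was 0.12 as deposited and as low as -0.04. MRPL14, with G536S above and wild type below, and MRPL35, with the opposite order, met it after all 3. With 1 array per group these differences were not tested, and all share the 1 empty vector array.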

How the results depend on the processing

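The median filter and the updated symbols leave the same 71 genes and values, so they could change nothing about the members. Of 132 values recomputed over the other 7 alternatives, 97 stayed within 0.1 (log2) or 1.5 times of the value reported, 30 moved further and 5 changed sign. Some of the 97 could hardly move: the mean of probe sets can alter only MRPL33 among the members. Centring shifts all genes of an array alike, so it cannot alter a difference between subunit medians. The mark of 0.1 is wider than the members' median between the constructs (0.09) and the subunit differences below. Staying within it is no support for those values. Quantile normalization, centring and cyclic loess moved the median of all genes by -0.10, -0.09 and -0.09 for wild type over the empty vector and by -0.12, -0.12 and -0.10 for G536S, and between the constructs by -0.03 to -0.01. In the same order, for wild type over the empty vector the members' median became -0.043, -0.016 and -0.032, the count 1.5-fold higher 1, 1 and 1, and the count 1.2-fold higher 6, 9 and 7 (15.1%, 16.2% and 16.2% of all genes); the count 1.2-fold lower was 11 and 10 after the first and the second (18.6% and 17.4% of all genes). For G536S over the empty vector the median became 0.039, 0.072 and 0.063, the count 1.5-fold higher 1, 1 and 1, and the count 1.2-fold lower 7, 5 and 5; the count 1.2-fold higher was 11 and 13 after the first and the second, and the count 1.5-fold lower 2 after the first. With only the 45 members at or above the 75th percentile, fewer genes by construction, wild type over the empty vector had 9 at 1.2-fold higher and 2 at 1.5-fold lower, and G536S over wild type 1 at 1.5-fold higher. A threshold of 25% on the ratio, tried before the 1.2-fold count was chosen, gave 13 higher and 0 lower for G536S over wild type. The median of large less that of small subunit genes was -0.03 for wild type over the empty vector, but 0.0059 after quantile normalization, and 0.05 for G536S over the empty vector, but -0.036 among the 45. For sign changes between the scalings beyond these shifts the cause was not tested. Leaving out MRPS36 was not run because it is no member under the annotation's symbols. No paired analysis was possible because each group has 1 array. Intensities near background, among the 26 lower genes, limit what can be seen.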
